A study of Homo sapiens with 16 samples.

Results

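The first 30 Mb of chromosome 20, its short arm and the sequence around its centromere on GRCh37, were examined for the DNA topoisomerase TOP2B. Members were chosen by position alone, as the intervals of the 4 deposited TOP2B peak lists whose midpoint lay below 30 Mb, and there were 1036 of 44922 in all. The study used PC9, an established human lung adenocarcinoma line that grows on a mutant EGFR receptor, and CUT&RUN, a method where an antibody guides a nuclease to release the DNA around its target for sequencing. The 4 conditions were wild type and METTL7A knockout, each either untreated or kept under osimertinib, an EGFR kinase inhibitor, for 6 to 8 weeks at doses raised from 100 nM. Each condition had 2 TOP2B libraries and 1 peak list made from both, and the 8 samples of a histone H2A antibody were not analysed here. The sources used here do not say whether the knockout is a single clone or whether the replicates were separate cultures.

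TOP2B cuts both strands of a DNA duplex, passes another duplex through the break and reseals it, which relieves the torsional stress that transcription and chromatin looping create. It is the topoisomerase II isoform of non-dividing as well as dividing cells, and it is known to gather at active promoters and at the anchors of chromatin loops. METTL7A belongs to the methyltransferase-like family. The short arm of chromosome 20 carries genes such as PCNA, the sliding clamp of DNA replication, JAG1, a Notch ligand, and BMP2, a growth factor, but no annotation of that build was used here, so intervals were not assigned to genes and are given by position.

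The region held 312 intervals in untreated wild type, which was 2.04% of that list (exact Clopper-Pearson 95% interval 1.82 to 2.28). Untreated knockout had 421 intervals, or 3.37% (3.06 to 3.701). Under osimertinib, wild type had 108 intervals, or 1.12% (0.919 to 1.35), and the knockout had 195, or 2.60% (2.25 to 2.99). The order was therefore untreated knockout, treated knockout, untreated wild type and treated wild type. The 95% intervals of treated knockout and untreated wild type overlapped, and those of the other neighbours in that order did not. They cover counting error only, since 1 list per condition leaves no spread between replicates, no test between conditions and no measure of how a repeat of the experiment would vary.

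The first 30 Mb were thinly populated beside the chromosome from 40 Mb on in all 4 lists. Untreated wild type had 10.4 intervals per Mb in the first 30 Mb, 38.9 in the next 10 Mb and 85.7 from 40 Mb on. The treated wild-type list had 3.6, 12.5 and 14.4 in the same order. In untreated knockout the densities were 14.0, 13.5 and 86.2 per Mb, so that the first 30 Mb and the 10 Mb after it were about equally dense there. In treated knockout they were 6.50, 5.30 and 54.3 per Mb. As a share of the chromosome's own intervals, the first 30 Mb took 11.7% in untreated wild type (10.5 to 13.0), 16.6% in untreated knockout (15.2 to 18.2), 19.2% for wild type under osimertinib (16.01 to 22.7) and 13.1% in treated knockout (11.4 to 14.9). Treated wild type, which had the smallest share by list, had the largest by chromosome; its list held 563 intervals on the whole chromosome against 1490 to 2664 in the others.

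**Figure D1:**
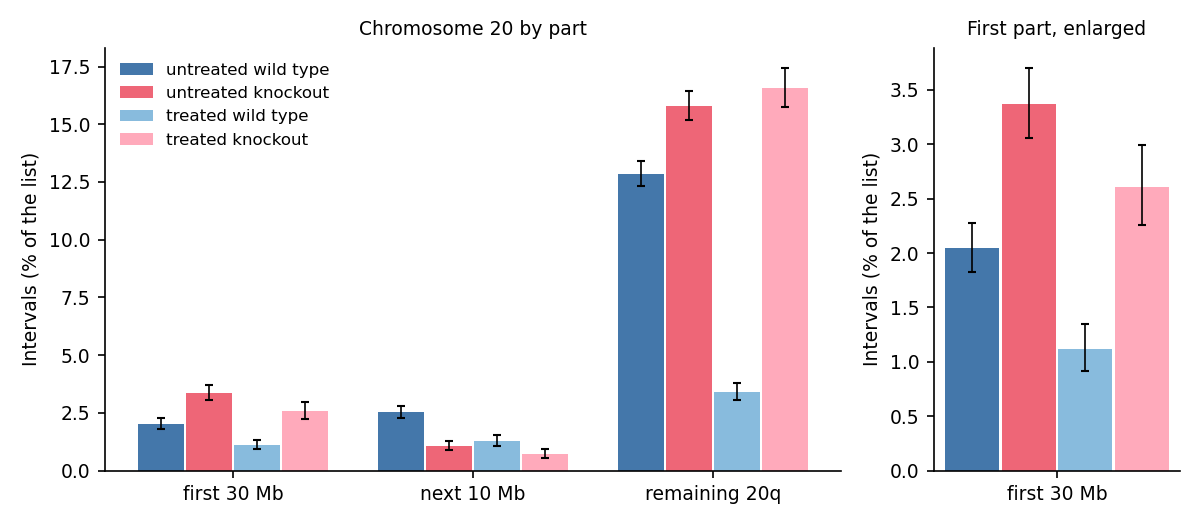
Percent of each list's intervals in 3 parts of chromosome 20 (the first 30 Mb, 30 to 40 Mb, and 40 Mb to the end), with the first part enlarged at the right; bars are lists and error bars exact 95% intervals for counting error. In the first 30 Mb both knockout lists (3.37 and 2.60%) stand above both wild-type lists (2.04 and 1.12%).

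A SEACR-type peak carries a maximum, the highest coverage within it, and 100% of the maxima in each list were whole multiples of 1 step (to 0.01 steps, or to the printed digits for the highest). Among the members the lowest maximum was 7 steps in both wild-type lists, 3 in the knockout without drug and 4 with it. What 1 step stands for in reads is unknown, and steps of different lists cannot be equated. As a multiple of the median maximum of its own list, the lowest maximum without drug was 0.583 for wild type and 0.6 for the knockout, and with drug 0.636 and 0.5, so the genotypes did not separate on that scale. The part of the signal at which each list admitted peaks in the shares below was not tested. With only intervals at or above the median maximum of their own list, the knockout to wild-type ratio of shares was 2.35 untreated and 3.08 under osimertinib. The list medians were 12 steps in wild type and 5 in the knockout without drug, and 11 and 8 with it. Maxima can tie at the median, so this cut need not keep equal parts of the lists. The parts kept are not given here.

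Members had widths close to those of their lists. Without drug the median width was 2475 bp in wild type and 1550 bp in the knockout, and under osimertinib it was 1250 and 1100 bp, against 2600, 1650, 1200 and 1150 bp for the other intervals of each list. Together they covered 860.4 kb, 694 kb, 132.6 kb and 209.2 kb in that order, or 2.87, 2.31, 0.442 and 0.698% of the 30 Mb. The median maximum, relative to the median of the same list, was 0.917 for wild type and 1 for the knockout without drug, and 0.909 and 0.875 under osimertinib. Beyond 30 Mb on the same chromosome it was 1.17, 1, 0.909 and 1, so the members stood lower than the long arm in untreated wild type and treated knockout. A maximum belongs to the whole called peak and lay outside the listed interval for 47.8, 16.4, 62.0 and 44.1% of the members, in the same order of lists.

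Along the 30 Mb, intervals were unevenly spread, and most lay in the first 6 Mb in every list but treated wild type. Without drug the first 6 Mb held 202 of 312 intervals in wild type (64.7%) and 236 of 421 in the knockout (56.1%). Under osimertinib it held 50 of 108 (46.3%) and 114 of 195 (58.5%). From 16 to 18 Mb there were 35, 58, 11 and 29 intervals in the same order of lists. The 10 Mb between these stretches held 30, 58, 3 and 23 intervals. From 18 to 23 Mb there were 17, 30, 15 and 6, and from 23 to 26 Mb, the part of the short arm next to the centromere, there were 26, 38, 28 and 21. In treated wild type these last 3 Mb were thus more densely filled per Mb than either the first 6 Mb or the stretch from 16 to 18 Mb. No interval of any list lay from 26 to 29 Mb, where GRCh37 has the unsequenced gap of the centromere, and 1 or 2 per list lay from 29 to 30 Mb. These stretches were drawn after the counts had been seen, and an empty window shows that no peak was listed there, not that the signal was zero.

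The window at 3 to 4 Mb was the densest in 3 lists and within 5 intervals of the densest in the fourth. Both untreated lists had 45 intervals there, and under osimertinib wild type had 23 and the knockout 38. In the treated lists it alone made up 21.3% of the wild-type and 19.5% of the knockout intervals of the region. Next in untreated wild type came 1 to 2 Mb with 43 and 0 to 1 Mb with 39, and untreated knockout led with the same windows, at 50 and 45. Treated wild type departed from this order: its second window was 25 to 26 Mb, with 11 intervals, ahead of 2 to 3 Mb with 10. In treated knockout the windows at 0 to 1 Mb and 17 to 18 Mb followed, with 23 intervals each.

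The knockout without drug was compared with untreated wild type to ask what loss of METTL7A alone does to TOP2B. The share of the list in the first 30 Mb was 1.65 times as high in the knockout (exact conditional 95% interval 1.42 to 1.92). From 30 to 40 Mb the ratio was 0.424 (0.346 to 0.518) and from 40 Mb on it was 1.23 (1.155 to 1.31), so the part of the chromosome before 30 Mb and the 10 Mb after it differed in opposite directions. The difference was spread along the arm: the ratio was 1.43 in the first 6 Mb (1.18 to 1.73), 2.37 from 6 to 16 Mb (1.497 to 3.81), 2.03 from 16 to 18 Mb (1.31 to 3.18), 2.16 from 18 to 23 Mb (1.15 to 4.17) and 1.79 from 23 to 26 Mb (1.06 to 3.07). The regional ratio ranged from 1.35 by number of intervals to 2.48 in lists cut to like length by their maxima.

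Of the 11 windows of 1 Mb with at least 10 intervals in either list, all 11 had a higher share in the knockout and 3 passed 2-fold. The median log2 of the ratio, as used for the calls, was 0.756 in these 11 windows. For the 360 windows examined over the genome it was -0.237, and how many of those had a higher share in the knockout is not given here. Over the genome, 3.61% of the windows examined passed 2-fold upwards and 18.3% downwards, and 0 of the 11 did the latter. The 3 windows were 24 to 25 Mb with 10 and 19 intervals (ratio 2.32, 1.03 to 5.60), 17 to 18 Mb with 22 and 39 (2.17, 1.25 to 3.84) and 5 to 6 Mb with 13 and 23 (2.16, 1.05 to 4.65). All 3 ratios were close to the 2-fold limit. When each called peak was counted as 1, 1 window passed, and by number of intervals 0 did, with genome-wide shares at these settings not given here. At the densest window, 3 to 4 Mb, the counts were 45 and 45 and the ratio 1.22 (0.791 to 1.89).

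In wild type, osimertinib was compared with no treatment to describe TOP2B in cells kept for weeks with the drug. The regional count went from 312 to 108 and the ratio of list shares was 0.548 (0.436 to 0.684). Beyond 40 Mb the ratio was 0.266 (0.236 to 0.299), so the first 30 Mb stood lower under the drug by list share while the far long arm stood lower still. By number of intervals the regional ratio was 0.346. As a share of chromosome 20 it turned to 1.64, since the whole chromosome held fewer intervals under treatment.

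Under osimertinib the ratio lay below 1 in each stretch up to 18 Mb. From 18 to 26 Mb it lay above 1 in each stretch, with intervals that include 1. These stretches were drawn after the counts had been seen. The ratio was 0.392 in the first 6 Mb (0.282 to 0.536), 0.158 from 6 to 16 Mb (0.0309 to 0.509), 0.497 from 16 to 18 Mb (0.228 to 1.00) and 1.40 from 18 to 23 Mb (0.649 to 2.97). From 23 to 26 Mb the number of intervals hardly differed, at 26 untreated and 28 treated, which gave a ratio of 1.70 (0.963 to 3.03) in the shorter treated list. These last 3 Mb thus held 25.9% of the region's intervals in treated wild type (17.97 to 35.3), against 8.33% without drug (5.52 to 12.0), and 9.03% (6.47 to 12.2) and 10.8% (6.79 to 15.99) in the knockout without and with it. On a fixed grid of 5 Mb the ratio went from 0.410 in the first block (0.293 to 0.565) to 1.58 from 20 to 25 Mb (0.822 to 3.05) and 1.58 from 25 to 30 Mb (0.650 to 3.85).

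By windows, 6 of 11 were past 2-fold downwards under osimertinib and 0 upwards, beside 36.0% and 33.0% of the windows examined over the genome. The share of lower windows was above the background, but 11 windows are few and each count has a wide interval. At 0 to 1 Mb the counts were 39 and 6 (ratio 0.243, 0.0843 to 0.579). The next window held 43 and 7 (0.258, 0.0978 to 0.578). At 4 to 5 Mb the counts were 30 and 3 (0.158, 0.0309 to 0.509), and at 5 to 6 Mb 13 and 1 (0.122, 0.00287 to 0.811). Between these, 2 to 3 Mb held 32 and 10 (0.495, 0.217 to 1.03) and 3 to 4 Mb held 45 and 23 (0.809, 0.467 to 1.37), so the densest window of the outer 6 Mb had the ratio nearest to 1. The window at 2 to 3 Mb was not called, since calls add 0.5 to each count and its log2 was then -0.968. The remaining 2 windows past the limit were 16 to 17 Mb with 13 and 2, and 10 to 11 Mb with 10 and 0, for which the upper bound of the ratio was 0.706. With at least 20 intervals required, 3 of 6 windows examined passed, and the genome-wide share at that setting is not given here.

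**Figure D2:**
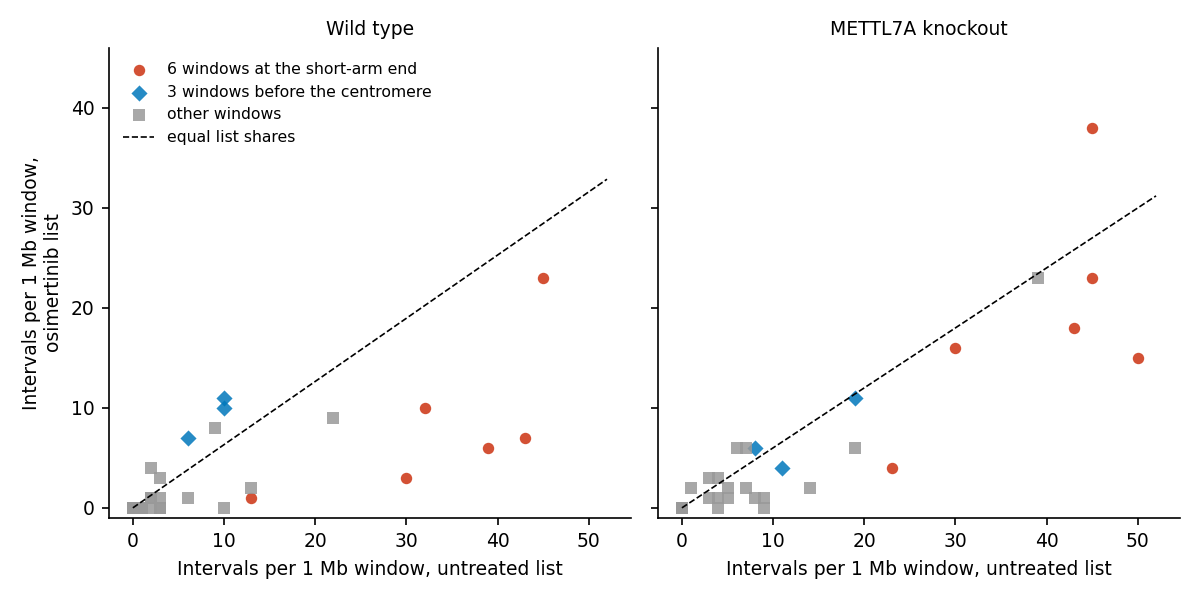
Number of intervals in each of the 30 windows of 1 Mb, untreated list (horizontal) against osimertinib list (vertical), for wild type (left) and knockout (right); points on the dashed line would have equal shares of the 2 lists. In wild type the 6 windows at the short-arm end lie below the line and the 3 windows before the centromere above it, the best filled with 11 intervals treated and 10 untreated.

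In the knockout, the same treatment was set against untreated knockout. The count went from 421 to 195 and the ratio of list shares was 0.772 (0.648 to 0.917), and by number of intervals it was 0.463. In lists of like length the ratio was 0.921. Beyond 40 Mb it was 1.05 (0.976 to 1.13). Of 11 windows examined, 2 were past 2-fold downwards and 0 upwards, near the 15.2% and 2.90% found over the genome. The 2 were 5 to 6 Mb with 23 and 4 intervals (0.290, 0.0729 to 0.849) and 10 to 11 Mb with 14 and 2 (0.238, 0.0263 to 1.04). The window at 1 to 2 Mb, with 50 and 15 intervals, had a ratio of 0.5002 (0.261 to 0.905). It lay just inside the limit, at a log2 of -0.967 with 0.5 added to each count. By number of intervals 6 of the 11 windows were past 2-fold downwards. The treated list is shorter, with 7493 intervals against 12493, which lowers every ratio of numbers. The genome-wide share by number is not given here.

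Stretch by stretch, the knockout ratio was 0.805 in the first 6 Mb (0.638 to 1.01), 0.661 from 6 to 16 Mb (0.389 to 1.09), 0.834 from 16 to 18 Mb (0.515 to 1.32) and 0.921 from 23 to 26 Mb (0.514 to 1.61). It was lowest from 18 to 23 Mb, with 30 and 6 intervals (0.334, 0.114 to 0.814), where wild type had 17 and 15. At 17 to 18 Mb the 39 untreated and 23 treated intervals gave 0.983 (0.561 to 1.69), so that the 2 lists had close to equal shares there. With 1 list per condition, no test of a different response in the 2 genotypes was possible.

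Under osimertinib, treated knockout was compared with treated wild type. The share of the list was 2.33 times as high in the knockout (1.83 to 2.97), by number 1.81, and 0.682 when taken as a share of chromosome 20. From 30 to 40 Mb the ratio was 0.546 (0.389 to 0.759) and from 40 Mb on 4.85 (4.29 to 5.49). Of 8 windows examined, 6 were past 2-fold upwards in the knockout and 0 downwards, whereas over the genome 28.0% were upwards and 51.0% downwards. Those 6 were the first 5 Mb, window by window, and 17 to 18 Mb. By number of intervals, 4 of the 8 were upwards and 1 downwards. In windows of 0.5 Mb, and again in windows of 2 Mb, 4 of 6 examined were upwards and 1 downwards. Genome-wide shares by number and for these window sizes are not given here. The counts in treated wild type and treated knockout were 6 and 23 at 0 to 1 Mb (4.94, 1.96 to 14.8), 7 and 15 at 1 to 2 Mb (2.76, 1.06 to 8.01), 10 and 16 at 2 to 3 Mb (2.06, 0.880 to 5.08), 23 and 38 at 3 to 4 Mb (2.13, 1.24 to 3.74), 3 and 18 at 4 to 5 Mb (7.73, 2.26 to 41.0) and 9 and 23 at 17 to 18 Mb (3.29, 1.47 to 8.09). The interval at 2 to 3 Mb includes a ratio of 1. With at least 20 intervals required, 3 windows were examined and all 3 passed, again without a genome-wide share to set beside them. In the sparse stretch from 6 to 16 Mb the counts were 3 and 23 (9.88, 2.98 to 51.4). From 23 to 26 Mb the counts were 28 and 21 and the ratio 0.966 (0.522 to 1.76), and from 18 to 23 Mb they were 15 and 6 (0.515, 0.164 to 1.41).

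**Figure D3:**
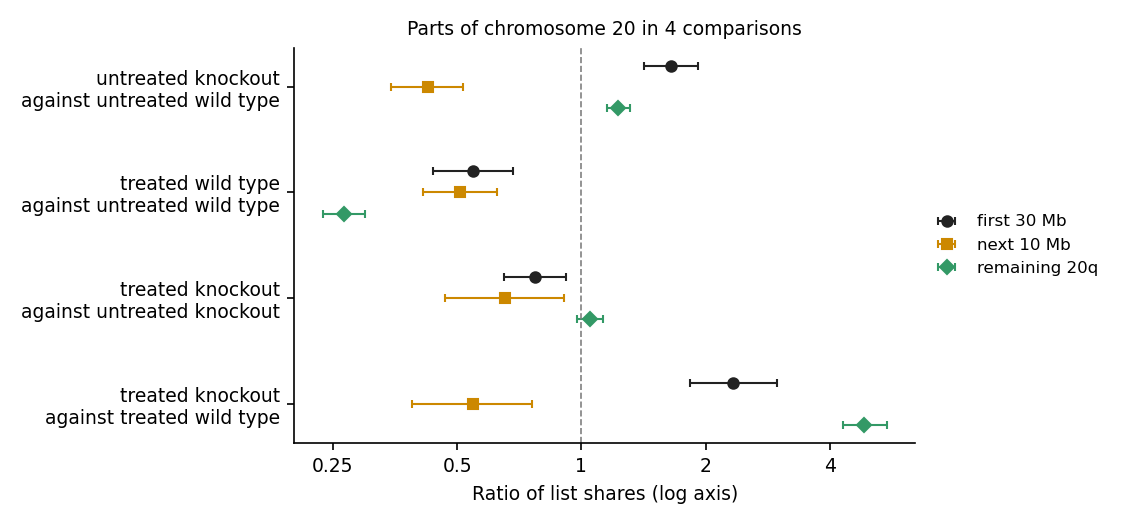
Ratio of list shares (log axis) in 4 comparisons for the first 30 Mb, 30 to 40 Mb (next 10 Mb) and 40 Mb to the end (remaining 20q) of chromosome 20, with exact conditional 95% intervals for counting error; the dashed line marks equal shares. The first 30 Mb lies above 1 in both comparisons of knockout with wild type (1.65 and 2.33) and below 1 in both comparisons of treatment (0.548 and 0.772).

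Counts by window do not say whether the same places were listed. The 4 comparisons share lists with each other, so each is given with its own values. Of the 312 untreated wild-type intervals, 196 had no overlapping interval in untreated knockout, or 62.8% (57.2 to 68.2), near the 64.9% of the whole list. Of the 421 untreated knockout intervals, 290 had none in untreated wild type, or 68.9% (64.2 to 73.3), against 46.3% over the whole list and 26.7% on chromosome 20 beyond 30 Mb. The knockout thus had more intervals here and a larger part of them lay where wild type had none. Many were close by: 110 of those 290 lay within 10 kb of a wild-type interval, and 46 lay more than 100 kb away. How often a counterpart is met also depends on how densely the other list is filled. Untreated wild type had 10.4 intervals per Mb here and 85.7 from 40 Mb on. How far this density bears on the shares without a counterpart was not tested.

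Most untreated intervals had no counterpart in the treated list of the same genotype. In wild type 277 of 312 had none under osimertinib, or 88.8% (84.7 to 92.1), beside 85.2% for the list. In the reverse direction 70 of 108 treated intervals had no untreated counterpart, or 64.8% (55.04 to 73.8), beside 71.3%. In the knockout 375 of 421 untreated intervals had none, or 89.1% (85.7 to 91.9), beside 76.6%, and 148 of 195 treated intervals had none, or 75.9% (69.3 to 81.7), beside 56.3%. The knockout pair therefore overlapped less here than over its lists, with both whole-list values outside the 95% intervals. Both whole-list values of the wild-type pair lay within theirs. Beside chromosome 20 beyond 30 Mb, treated wild type also overlapped its untreated list less, since only 24.6% of its intervals there had no untreated counterpart. The other values beyond 30 Mb were 88.1% for untreated wild type in treated, 70.1% for untreated knockout in treated and 47.3% for treated knockout in untreated. Between the treated lists, 88 of 108 wild-type intervals had no knockout counterpart, or 81.5% (72.9 to 88.3), beside 89.5%, and 176 of 195 knockout intervals had no wild-type one, or 90.3% (85.2 to 94.0), beside 86.6%. If an overlap had to cover 50% of each partner, the 64.8% became 97.2%.

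**Figure D4:**
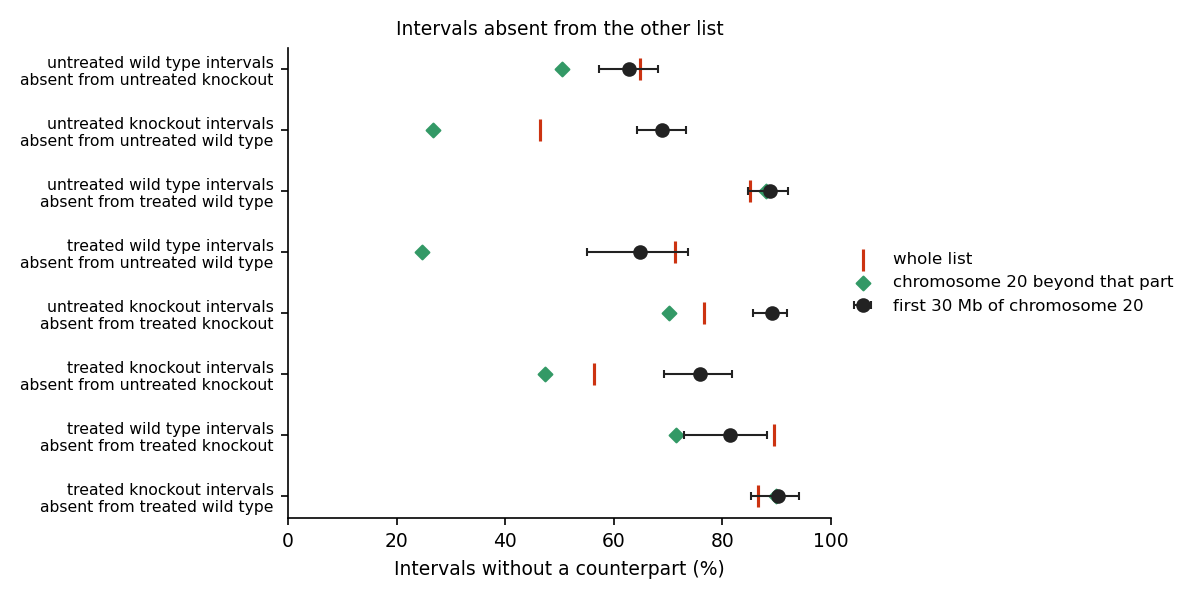
Percent of intervals that no interval of the other list overlaps by at least 1 bp, for both directions of the 4 comparisons; black points are the first 30 Mb of chromosome 20 with exact 95% intervals, red bars the whole list and green diamonds chromosome 20 beyond 30 Mb. The untreated knockout intervals absent from untreated wild type stand at 68.9% here and 46.3% over the list.

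Overlapping intervals of the 4 lists were merged into 746 positions. Of these, 549 (73.6%) were held by 1 list, close to the 72.9% of all 29197 positions of the genome. Those held by untreated knockout alone numbered 258, or 34.6% against 16.8% over the genome, and those of treated wild type alone 47, or 6.30% against 21.4%. Another 71 positions, or 9.52% against 8.25% over the genome, were shared by the 2 untreated lists alone. Both knockout lists and neither wild-type list held 20 positions, which is 2.68% beside 1.40% over the genome. The opposite pattern, both wild-type lists and neither knockout list, was found at 15 positions, or 2.01% beside 3.25%. Treated wild type alone lacked 25 positions that the other lists held, or 3.35% beside 5.26%, and treated knockout alone lacked 10, or 1.34% beside 1.62%. Of those 25, 20 lay in the first 5 Mb, 7 of them at 3 to 4 Mb, and the other 5 at 16 to 18 Mb. Shares of positions held by 1 list also follow how many intervals each list had here. Within its own list, 61.3% of the untreated knockout intervals here overlapped no other list, against 39.3% over the list. For treated wild type the values were 43.5 and 64.7%, for treated knockout 47.2 and 29.5%, and for untreated wild type 48.7 and 51.8%.

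**Figure D5:**
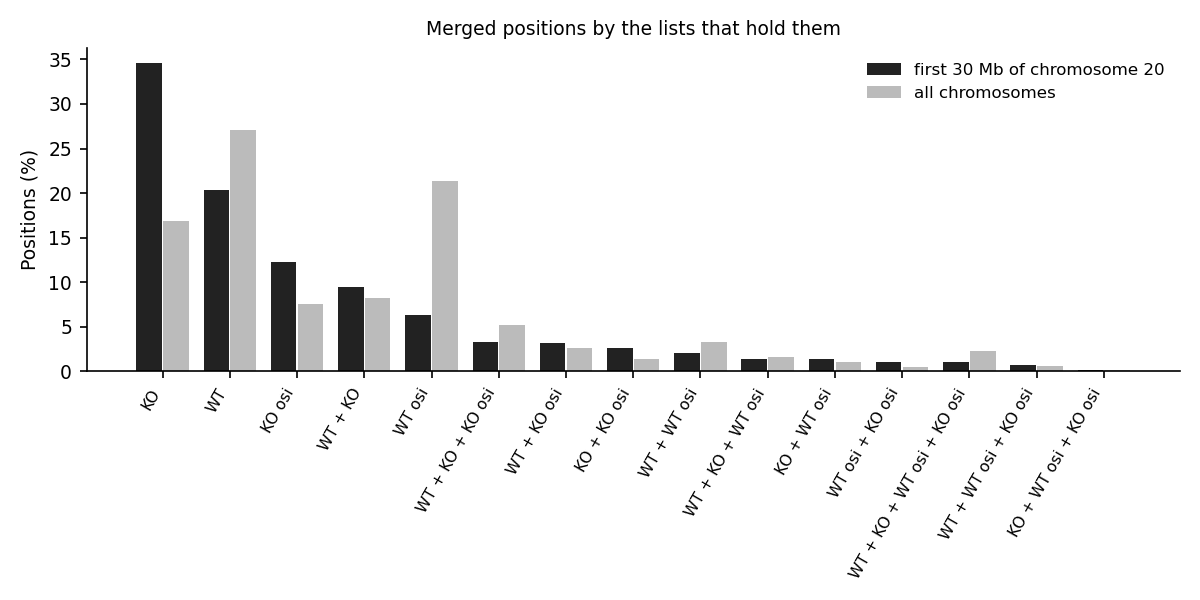
Percent of merged positions held by each combination of lists (WT, wild type; KO, METTL7A knockout; osi, osimertinib), for the 746 positions of the first 30 Mb of chromosome 20 (black) and all 29197 positions (grey). Positions of untreated knockout alone make up 34.6% here and 16.8% over the genome.

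All 4 lists had intervals in 8 merged positions, or 1.07%, beside 2.29% over the genome, and 7 of the 8 lay in the first 6 Mb. Merging joins intervals in a chain, so such a position need not hold a base listed in all 4. Of the treated knockout intervals, 3 overlapped an interval of each other list. By mean rank of the maximum the first of the 8 positions was 3022701 to 3026400. The maxima there were 1.17 and 2 times the list median in wild type and knockout without drug and 1.18 and 0.75 times under osimertinib. The treated knockout interval there was 150 bp long, against 2600 bp in untreated wild type. It did not touch the treated wild-type interval at 3024801 to 3026150, so no base there was listed in all 4. The second, 17605101 to 17609850, was the one outside the first 6 Mb, with 1.17, 1.40, 1.27 and 0.75 times the median. Next came 2735101 to 2744400, where 1 untreated wild-type interval of 9300 bp spanned 950 bp of intervals in untreated knockout, 1900 bp in treated wild type and 1300 bp in treated knockout. At 3904351 to 3907600 the 4 lists gave intervals of 3250, 1950, 1250 and 1600 bp, with maxima close to their medians (1, 1, 0.909 and 1.25). The position 890151 to 897350 was joined through the wild-type interval, since the knockout intervals at 890151 to 891950 and 896201 to 897350 did not touch. When only maxima at or above the list median were kept, 0 positions were held by all 4 lists.

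Positions held by several lists were a larger share in the first 6 Mb and from 16 to 18 Mb. In the first 6 Mb 36.1% of 385 positions were held by 2 or more lists, and from 16 to 18 Mb 28.4% of 95. From 6 to 16 Mb the share was 9.71% of 103, from 18 to 23 Mb 9.84% of 61, and from 23 to 26 Mb 14.4% of 97. The 3 Mb of the short arm next to the centromere, where wild type had 26 intervals untreated and 28 treated, thus shared few positions between lists.

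At 16 to 18 Mb untreated wild type had 1 called peak from 17591001 to 17634500, cut into 5 intervals that covered 25650 bp. At this site untreated knockout had 4 peaks in 4 intervals (12600 bp), treated wild type 2 peaks in 4 intervals (4900 bp) and treated knockout 6 peaks in 9 intervals (11100 bp). The 3 highest intervals of the region in treated wild type were pieces of 1 peak at this site, at 1.27 times the list median, with 17948501 to 17949650 at the same value but narrower. The maximum of the divided peak lay outside all 3 pieces, at 17600951 to 17601000. TOP2B signal at this site was thus listed in every condition, as 1 broad peak in untreated wild type and as several shorter ones elsewhere.

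Within the window at 3 to 4 Mb, a cluster from 3602651 to 3870350 ran through all lists. It held 22 intervals of 9 called peaks in untreated wild type (62900 bp), 21 of 21 in untreated knockout (37500 bp), 14 of 8 in treated wild type (16850 bp) and 19 of 15 in treated knockout (21000 bp). The most divided untreated wild-type peak ran from 3727251 to 3765850 and was cut into 6 intervals, and a second ran from 3632601 to 3661700 in 4. Treated wild type also had a peak in 4 pieces here, from 3638251 to 3653500, within the second of these. The number of intervals thus differed less than the covered length, which was largest in untreated wild type and smallest in treated wild type. Over the whole region, 35.3% of untreated wild-type intervals were pieces of a divided peak, against 2.38% for the knockout without drug and 23.2 and 19.0% for wild type and knockout with it.

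Within the first 30 Mb, the highest maximum of treated knockout and the joint highest of untreated knockout lay next to the centromere, at a site that neither wild-type list held. In untreated knockout it was the interval 29651501 to 29652350, at 2.4 times the list median, and in treated knockout 29651651 to 29652250, at 2.62 times. The second lay within the first, and treated knockout had 1 more interval before it, from 29646051 to 29647300. In the wild-type lists the nearest interval was 228.3 kb away untreated and 324.9 kb away treated. Since the H2A samples were not analysed, no background signal was set beside this site, and whether its height is particular to TOP2B was not tested. The region's 2.4 was reached in untreated knockout by 1 other interval, 3716551 to 3717550, which overlapped no other list but lay 0.3 kb from a wild-type interval. The third in untreated knockout, 17362751 to 17364200 at 2 times the median, overlapped an untreated wild-type interval.

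Relative to the list median, wild-type maxima ranged over less. In steps, members without drug ran from 7 to 17 in wild type and from 3 to 12 in the knockout, with list medians of 12 and 5. Under osimertinib they ran from 7 to 14 and from 4 to 21, with medians of 11 and 8. Steps of different lists cannot be equated. In untreated wild type the highest was 1.42 times the list median, at 3145651 to 3155700, the longest of the 8 shared positions. It was followed at 1.33 by 409851 to 415250 and 3783051 to 3786850, both of which had a knockout counterpart. For 3783051 to 3786850 the maximum lay outside the interval, at 3782301 to 3782350. The highest that overlapped no other list was 8693551 to 8695600, at 1.33 times the median and 85.7 kb from the nearest untreated knockout interval, in the sparse 10 Mb. In treated wild type the highest found in no other list was 17948501 to 17949650, at 1.27, with its maximum outside the interval, at 17952401 to 17952450. The next in treated knockout after the site beside the centromere was 2777751 to 2778900, at 1.75 times the median, with a counterpart in both untreated lists. Its called peak had the maximum outside this interval, at 2785201 to 2785250. The highest of that list found in no other was 20659251 to 20660400, at 1.75 times the median and at least 66.8 kb from any interval of the other lists.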

How the data were processed

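PC9 cells were profiled by CUT&RUN, and 4 TOP2B peak lists, each from 2 replicate libraries, were used. Reads were handled with Bowtie2 2.4.2, SEACR, bedtools 2.30, deepTools 3.5.1, SAMtools, Trimmomatic and FastQC on GRCh37, per the submitters' processing notes. Peak caller settings and duplicate handling: not given in the sources used here. Without a header, columns were identified from their values: the deposited score is the area of a called peak and the deposited signal its maximum coverage. Per the labels' protocols, libraries were made from 2.5 ng and 20000000 paired-end reads were planned. The depth of the lists is unknown.

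Intervals were placed by midpoint and counted from 1. Counterparts overlapped by at least 1 bp. Windows of 1 Mb with at least 10 intervals in either list were examined, with 0.5 added to each count and a 2-fold limit on the ratio of list shares. Window ratios printed with a 95% interval are without the added 0.5. Intervals of a list that share their area, maximum and maximum region were taken as 1 called peak. Shares carry exact Clopper-Pearson and ratios exact conditional 95% intervals. Named were the 3 fullest windows and 3 highest intervals per list, the 3 highest in no other list, of which the text gives the first, windows past 2-fold and the 5 shared positions with the best mean rank; the clusters at 3 to 4 and 17 to 18 Mb and the 6 stretches were singled out after their values were seen. The region and these choices were made with earlier results of these data known. Functions were tested on simulated lists. Python 3.11.15, pandas 2.3.3 and SciPy 1.17.1 were used. Genes and sequences were not reported because an annotation or genome of GRCh37 was not used here.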

Additional observations from a re-analysis of the deposited data

Results flagged for a closer look

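In 3 windows the share of intervals differed from untreated in one direction under osimertinib in wild type and in the other in the knockout, and the difference between genotypes was not tested. At 3 to 4 Mb the ratio was 0.809 in wild type (0.467 to 1.37) and 1.41 in the knockout (0.890 to 2.22). At 24 to 25 Mb, with 10 and 10 intervals in wild type and 19 and 11 in the knockout, it was 1.58 (0.591 to 4.24) and 0.965 (0.415 to 2.13). At 25 to 26 Mb, with 10 and 11 and with 11 and 4, it was 1.74 (0.671 to 4.57) and 0.606 (0.141 to 2.05). Every one of these intervals for counting error includes 1.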

How the results depend on the processing

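Of 134 recalculated values, 80 stayed within the counting interval (counts: within 1.5 times), 52 moved beyond it and 2 turned direction; the causes were not tested. Leaving out 3 to 4 Mb and leaving chromosome 20 out of the denominator, both chosen after the data had been seen, moved none. Restricting the region to the short arm below 26 Mb (26 values) also moved none. It dropped 2 and 1 intervals in untreated wild type and knockout and 1 and 2 in the treated lists, so it could hardly move a value. The shares of chromosome 20 given next had to move, since their denominator is smaller. Taken as a share of chromosome 20, the ratio turned to 1.64 for treated against untreated wild type and to 0.682 for treated knockout against treated wild type, was 1.42 for the untreated genotypes, and the shares were 11.7, 16.6, 19.2 and 13.1% (untreated wild type, untreated knockout, treated wild type, treated knockout). Keeping maxima at or above the list median gave shares of 1.38 and 0.583% in wild type without and with drug and 1.79% in treated knockout, ratios of 2.35, 0.424, 0.554 and 3.08 (knockout to wild type untreated, treatment in wild type, treatment in knockout, knockout to wild type treated), 0 positions in all 4 lists, and shares without a counterpart of 83.3% (untreated knockout in wild type), 95.4 and 81.8% (wild type before and after treatment), 94.0% (untreated knockout in treated) and 100% in both directions between the treated lists. That cut need not keep equal parts of the lists, since maxima can tie at the median. Counting called peaks gave shares of 2.38% in untreated and 1.42% in treated wild type, a ratio of 1.42 and 1 window for the untreated genotypes, and a median width of 2750 bp in untreated wild type. Summed length gave 1.77, 2.98 and 2.23% in untreated wild type, untreated knockout and treated knockout. Lists of like length gave ratios of 2.48, 0.921 and 3.39 for the untreated genotypes, treatment in the knockout and the treated genotypes. Ratios of numbers were 1.35, 0.346, 0.463 and 1.81, with 0 of 11 windows for the untreated genotypes and 6 of 11 for treatment in the knockout. Requiring 20 intervals left 3 of 6 windows examined for treatment in wild type, 1 of 7 in the knockout and 3 of 3 for the treated genotypes. Windows of 2 Mb left 3 of 7 for treatment in wild type, and windows of 0.5 Mb gave 6 of 17 for treatment in the knockout. For none of these window counts is a genome-wide share at the same setting given here. With an overlap of 50% of both, shares without a counterpart were 83.7 and 87.9% (untreated genotypes), 99.0 and 97.2% (wild type and treatment) and 95.3 and 89.7% (knockout and treatment). Within 1 kb they were 54.5 and 62.0% (untreated genotypes), 83.6 and 64.1% (knockout and treatment) and 84.6% (treated knockout in wild type).

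No paired analysis was possible because each list was made from both replicates, and for the same reason leaving out a replicate was not run. The depth behind the lists is unknown, so a window without intervals sets no limit on signal. Neighbouring intervals, and pieces of 1 called peak, are not independent, so the counting intervals are too narrow.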
